A study of Mus musculus with 15 samples.

Results

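Heat shock proteins of the cytosol and of the mitochondrion were followed in the mouse hemibrain through 10 genes: Hspb1, Cryab, Hspa1a, Hspa1b, Hspa8, Hsp90aa1, Hsph1, Dnajb1, Hspd1 and Hspe1. A probe belonged to a gene when the RefSeq transcript given for it in the scanner files maps to that symbol. By this rule 9 of the 10 genes had a probe, 15 probes in all, and Hspa1b had none. The 9 genes were among 22557 features tested, of which 13763 carried a gene symbol. All samples were left hemibrains of male C57BL/6j mice kept on their diet for 24 weeks from an age of 3 weeks. The diets were matched for caloric content and differed in their polyunsaturated fatty acids. An enriched diet, ERD, had 7 parts n-3 to 1 part n-6, a balanced diet, BLD, had 1 part to 1 part, and standard lab chow, STD, had 1 part to 6 parts, with 5 arrays per diet. Hemibrain RNA was labelled with Cy5 and hybridised against a commercial reference RNA pooled from 11 mouse cell lines, carried in Cy3. The values below are log2 ratios of hemibrain over reference for a given probe. They can be compared between arrays but not between probes.

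Heat shock proteins are molecular chaperones that bind unfolded or newly made polypeptides and keep them from aggregating. HSP70 proteins fold clients in cycles of ATP hydrolysis started by HSP40 co-chaperones and reset by exchange factors such as HSP110, while small heat shock proteins hold clients without ATP and HSP90 acts late on kinases and receptors. In mitochondria, HSP60 and its lid HSP10 form the folding chamber for imported proteins. The stress-inducible genes of the group are switched on by the transcription factor HSF1, which binds heat shock elements, inverted repeats of the letters GAA.

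The upstream sequences are shown so that the letters this factor reads can be set beside the expression values. RefSeq promoter windows on the mouse build GRCm38.p6 were matched by symbol for 7 of the 10 genes, in 10 windows, and the 250 bases before the start were searched on both strands. The motifs were the head-to-head pair GAANNTTC, the tail-to-tail pair TTCNNGAA and the run of 3 units GAANNTTCNNGAA, which contains both pairs. The head-to-head pair was present in 5 of the 7 genes and in 5 of their 10 windows, and 6.69% of all 32851 windows held it. The tail-to-tail pair was present in 3 of the 7 genes, in 4 of the 10 windows and in 7.17% of all windows. The run of 3 units was found in Hspd1 and Hspe1, in 2 of the 10 windows, and in 0.466% of all windows. Windows that overlap or are near-identical count the same letters more than once, and the Hsph1 windows overlap. The genes Hspd1 and Hspe1 lie head to head, and their windows share 215 bases, so that they hold the same stretch read from opposite strands. In it 2 matches to the run of 3 units overlap, which makes 4 units in a row. The stretch begins 89 bases before the Hspe1 start and 144 bases before the Hspd1 start at the end of that window. Neither of the 2 Dnajb1 windows held a motif, but 1 of them lies downstream of the other's start, inside the gene. Only exact letters were searched, so elements with a mismatch were missed in every gene. Hspa1a and Hspa1b are near-identical gene copies, and 3 of 250 upstream bases differed between them. In the sequences below, written 5′ to 3′ along the gene, capitals mark these motifs. They are given for the genes with an unadjusted p under 0.05 in a diet pair, Hspb1, Hspa1a and Hsph1, and for Hspe1. A match describes the letters only.
Hspb1, chr5:135887669-135887918, plus strand: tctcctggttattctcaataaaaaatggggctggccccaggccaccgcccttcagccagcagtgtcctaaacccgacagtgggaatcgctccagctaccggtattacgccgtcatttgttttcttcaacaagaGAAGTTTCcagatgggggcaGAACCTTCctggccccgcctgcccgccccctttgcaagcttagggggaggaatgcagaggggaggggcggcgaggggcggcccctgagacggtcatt
Hspa1a, chr17:34972157-34972406, minus strand: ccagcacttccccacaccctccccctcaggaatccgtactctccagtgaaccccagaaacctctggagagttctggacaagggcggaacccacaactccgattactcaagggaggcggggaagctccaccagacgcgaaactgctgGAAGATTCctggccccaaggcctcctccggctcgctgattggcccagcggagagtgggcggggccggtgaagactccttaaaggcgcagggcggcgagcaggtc
Hsph1, chr5:149636337-149636586, minus strand: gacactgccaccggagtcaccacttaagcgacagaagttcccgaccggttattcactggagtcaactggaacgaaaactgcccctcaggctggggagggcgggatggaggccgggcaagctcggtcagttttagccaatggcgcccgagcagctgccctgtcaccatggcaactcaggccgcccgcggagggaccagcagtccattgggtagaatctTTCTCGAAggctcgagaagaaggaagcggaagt
Hspe1, chr1:55087898-55088147, plus strand: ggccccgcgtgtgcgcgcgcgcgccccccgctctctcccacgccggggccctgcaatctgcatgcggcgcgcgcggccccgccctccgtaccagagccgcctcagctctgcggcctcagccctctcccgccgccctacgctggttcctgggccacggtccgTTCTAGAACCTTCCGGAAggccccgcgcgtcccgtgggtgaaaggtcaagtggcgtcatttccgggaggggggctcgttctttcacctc

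All 8 neuronal, 8 astrocyte, 8 oligodendrocyte and 8 microglial markers were above background on at least 14 of the 15 arrays. Each gene was counted by its most often detected probe. The same held for the tested markers of vessels, choroid plexus and blood, so detection does not by itself identify the tissue. The arrays differed in brightness, with 17720 (ERD 1) to 31991 (BLD 4) spots well above background in Cy5. ERD 1, ERD 4 and BLD 3 resembled the other arrays least. Of 8 slides scanned on 2 days, those of the later day carried ERD 4, BLD 2, BLD 3 and BLD 4 and 0 STD arrays. In bulk hemibrain RNA, fewer cells of a type and less RNA per cell cannot be told apart.

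No heat shock protein gene passed the test between any pair of diets. At a Benjamini-Hochberg adjusted p under 0.05 in limma, 0 of the 9 genes were called in ERD against STD, where 0.217% of all features were. In BLD against STD 0 of 9 were called (all features 0.00887%), in ERD against BLD 0 of 9 (all features 0%), and in the F test over the 3 diets 0 of 9 (all features 0.0488%). In ERD against STD 8 of 9 genes had a lower mean, with a median log2 change of -0.18, against 0.02 over all features, of which 47% were lower. That median was -0.07 with the scanner's processed signals, -0.06 without STD 4 and -0.39 without STD 5 or with array weights. For BLD against STD 7 of 9 were lower with a median of -0.08, against 0.05 over all features, but with median centring of the arrays 1 of 9 was lower, with medians of 0.23 for the genes and 0.18 for all features. In ERD against BLD 7 of 9 were lower with a median of -0.16, against -0.04 over all features, and with slide as a block 4 of 9 were lower. ERD and BLD were both set against the same STD arrays, so these counts are not separate observations. At an unadjusted p under 0.05, 2 of 9 genes were lower in ERD than in STD (Hspb1 and Hspa1a), and 14.6% of all features passed that limit in either direction. The count was 1 of 9 in BLD against STD (Hspb1, all features 10.8%), and in ERD against BLD it was 1 of 9 (Hsph1, all features 10.4%).

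**Figure D1:**
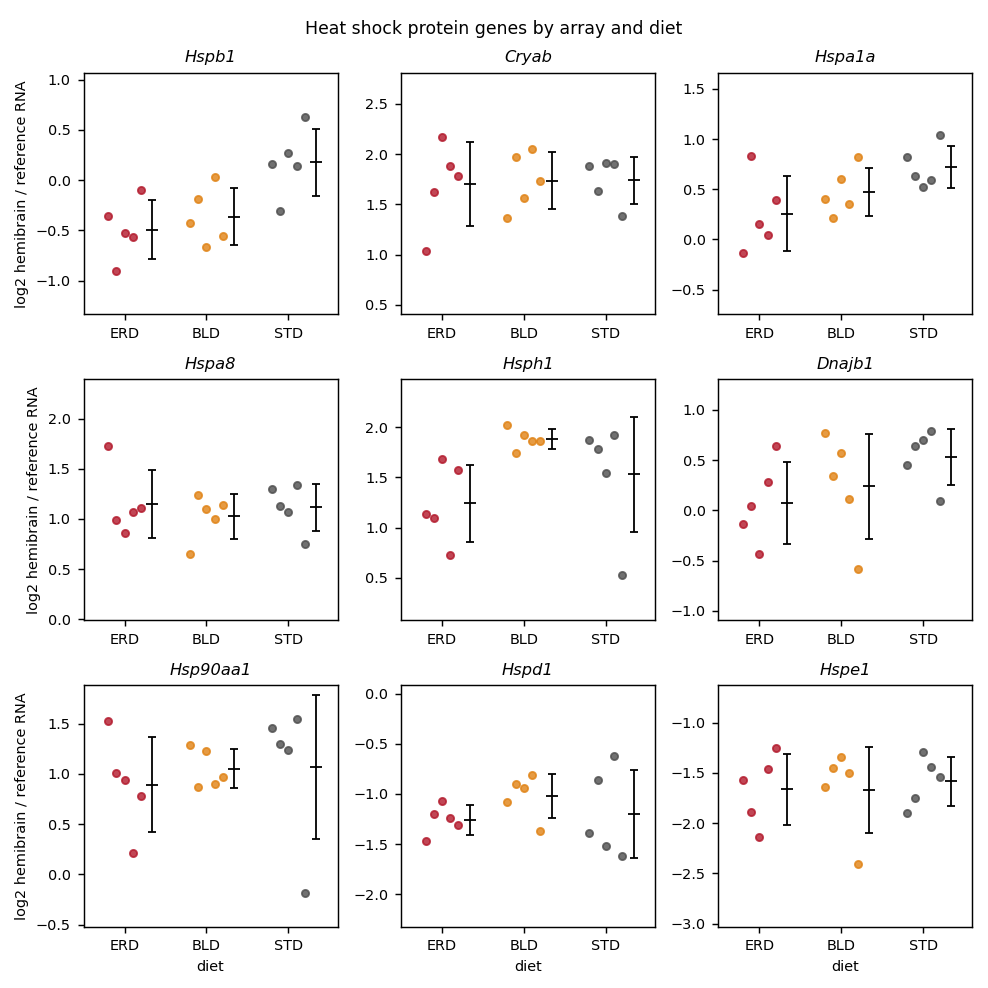
Log2 ratio of hemibrain over reference RNA (y axis) of the 9 heat shock protein genes on each array, by diet (x axis; ERD, BLD, STD). Points are arrays, and the bar beside them is the mean with its SD (n = 5); the panels have their own ranges of equal height. For Hspb1, 4 of the 5 STD arrays lie above every ERD and BLD array, and for Hsph1 the 5 BLD arrays lie above the 5 ERD arrays.

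Among the small heat shock proteins, Hspb1 had the lowest p of the 9 genes in ERD against STD, with the brightest probe standing for each gene. Hspb1 encodes HSP27, an ATP-independent holdase that also binds actin and is found in brain in vessels and glia. Its log2 ratios were -0.36, -0.90, -0.53, -0.57 and -0.10 on the ERD arrays, -0.43, -0.19, -0.67, 0.03 and -0.56 on the BLD arrays, and 0.16, -0.31, 0.27, 0.14 and 0.63 on the STD arrays. All ERD arrays and 4 of the BLD arrays were below zero, and only STD 2 of the STD arrays was, so the groups overlapped through that array. The mean was -0.49 ± 0.29 in ERD, -0.36 ± 0.28 in BLD and 0.18 ± 0.34 in STD (SD, n = 5 each). The log2 change was -0.67 ± 0.18 (SE) in ERD against STD, a ratio of 0.628 (adjusted p = 0.14 in limma). The change in BLD against STD was -0.54 ± 0.18 (adjusted p = 0.401), and -0.22 with median centring. ERD and BLD differed by -0.13, with a 95% interval of -0.52 to 0.27. Within the 3 slides that held an ERD and an STD array, the Hspb1 differences were -0.59, -0.69 and -0.24, and the sign in ERD against STD was negative under all 32 alternative settings, with values from -0.79 to -0.55. The Cy3 reference signal of the probe differed by -0.03 between ERD and STD.

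Cryab encodes alpha B-crystallin, the small heat shock protein that is abundant in lens and muscle and, in brain, in oligodendrocytes and astrocytes. Its log2 ratios ran from 1.04 over a median of 1.78 to 2.17 in ERD, from 1.36 over 1.73 to 2.05 in BLD and from 1.38 over 1.88 to 1.91 in STD. The 3 ranges lay over each other. The change in ERD against STD was -0.04, with a 95% interval of -0.45 to 0.37, and in BLD against STD it was 0.00, with an interval of -0.42 to 0.41. A second, dimmer Cryab probe (A_55_P2007656) gave -0.37, -0.12, 0.89, 0.88 and 0.61 in ERD, with a mean of 0.38 ± 0.59, and means of 0.79 ± 0.29 in BLD and 0.80 ± 0.22 in STD. It was low on ERD 1 and ERD 2 alone. Its change in ERD against STD was -0.42 ± 0.23 (SE, adjusted p = 0.412).

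Of the HSP70 proteins, Hspa1a is the stress-inducible form and Hspa8, encoding HSC70, the constitutive one, which also uncoats clathrin vesicles at synapses. The Hspa1a probe was dim. Its net Cy5 intensity ran from 5 to 60, and it was above background on 14 of 15 arrays. Since Hspa1b is a near-identical copy, signal from both genes may reach this probe, and they could not be separated. The Hspa1a log2 ratios were -0.13, 0.83, 0.15, 0.04 and 0.39 in ERD, 0.40, 0.21, 0.60, 0.35 and 0.82 in BLD, and 0.82, 0.63, 0.52, 0.59 and 1.04 in STD. Apart from ERD 2, every ERD array lay under every STD array. The means were 0.26 ± 0.37 in ERD, 0.48 ± 0.24 in BLD and 0.72 ± 0.21 in STD (SD, n = 5 each). The change in ERD against STD was -0.47 ± 0.17 (SE, adjusted p = 0.241 in limma), and BLD lay between, at -0.25 against STD. With slide as a block the change in BLD against STD was 0.21, so BLD then lay above STD. The Cy3 reference signal of the probe differed by -0.25 in BLD against STD (adjusted p = 0.316 in limma) and by -0.11 in ERD against STD. The size of the Hspa1a difference in ERD against STD depended on the processing. It was -1.25 with the scanner's processed signals and -1.03 with a background offset of 1, but -0.23 with median centring or with slide as a block, and on slide 4 it was 0.20.

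The 3 probes of Hspa8 disagreed. The brightest (A_55_P2080603), which stands for the gene, had a mean of 1.15 ± 0.34 in ERD, 1.03 ± 0.23 in BLD and 1.12 ± 0.23 in STD, and a change in ERD against STD of 0.03 with a 95% interval of -0.32 to 0.39. A second probe (A_55_P2069721) differed by -0.13 ± 0.15 (SE). The dimmest probe (A_52_P12877) gave -3.45, -4.20, -2.56, -2.86 and -3 in ERD, -1.75, -1.84, -2.80, -1.68 and -2.77 in BLD, and -2.09, -1.87, -2.20, -1.84 and -1.92 in STD. All 5 ERD arrays were below all 5 STD arrays, while BLD 3 and BLD 5 lay among the ERD arrays and the other BLD arrays near STD. With 1 probe per gene, 3.78% of all features had ERD and STD arrays that did not overlap, in either direction. The change at this probe was -1.23 ± 0.29 (SE) in ERD against STD, with adjusted p = 0.0897 when all probes were fitted singly. In ERD against BLD the change at this probe was -1.04 ± 0.29 (adjusted p = 0.286). In that fit 0.209% of the probes were called in ERD against STD, 0.00759% in BLD against STD and 0% in ERD against BLD. Without ERD 3 the adjusted p in ERD against STD was 0.0423, and it was above 0.05 with any other single array left out. Leaving out ERD 3 also raised the features called, with 1 probe per gene, from 49 to 170. The net Cy5 of this probe ran from 29.5 to 723.5, and was 29.5 on ERD 1 and 88 on ERD 2, its lowest ratios. The change at this probe in ERD against STD was -1.08 in Cy5 alone and 0.08 in the reference channel, and it was -2.33, -0.47 and -1.16 within slides 4, 5 and 7. Across the 15 arrays this probe correlated with the other 2 Hspa8 probes at 0.267 and -0.257, and those 2 with each other at 0.37. All 3 probes are assigned to the same transcript, NM_031165, and the files give no probe sequences.

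**Figure D2:**
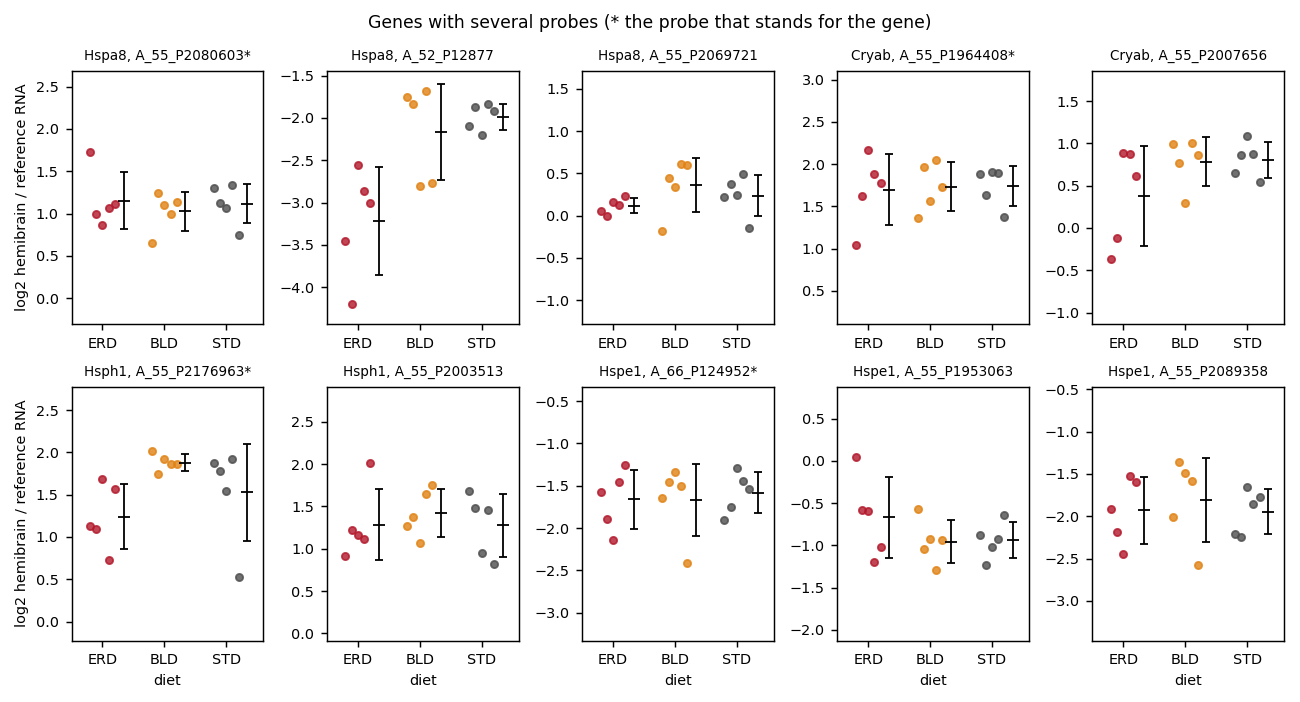
Log2 ratio of hemibrain over reference RNA (y axis) by diet (x axis; ERD, BLD, STD) for the 10 probes of the 4 genes with more than 1 probe; points are arrays, bars are the mean and SD (n = 5), and the panels have ranges of equal height. Of the Hspa8 probes, A_52_P12877 alone has its ERD arrays, from -4.20 to -2.56, below all STD arrays. With 1 probe per gene, the ERD and STD arrays of 3.78% of all features do not overlap.

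Hsph1 encodes the HSP110 protein that exchanges nucleotide on HSP70, and had the lowest p of the 9 genes in ERD against BLD. Its log2 ratios were 1.13, 1.09, 1.68, 0.73 and 1.57 in ERD, 2.02, 1.74, 1.92, 1.86 and 1.86 in BLD, and 1.87, 1.78, 1.54, 1.92 and 0.53 in STD. The ERD arrays were all below the BLD arrays, and STD 5 was low while the other STD arrays reached towards BLD. The means were 1.24 ± 0.38 in ERD, 1.88 ± 0.10 in BLD and 1.53 ± 0.58 in STD (SD, n = 5 each). The change in ERD against BLD was -0.64 ± 0.24 (SE), a ratio of 0.643 (adjusted p = 0.425 in limma). It was -0.97 with median centring, -0.43 with processed signals, -0.42 without the 3 least correlated arrays and -0.39 with the mean of both probes. Within slides 1, 3 and 7 it was -1.09, -0.89 and -0.29, and within the earlier and later scan days -0.57 and -1.10. Slides 3 and 7 each held 1 ERD and 1 BLD array. Slide 1 and the later day share ERD 4 as their only ERD array, so the slide and scan day values are not separate observations. Hsph1 was the only 1 of 9 genes whose arrays did not overlap between ERD and BLD, against 1.36% of all features. In ERD against STD 0 of 9 genes had groups that did not overlap (all features 3.78%), and in BLD against STD 0 of 9 (all features 2.89%). The second Hsph1 probe (A_55_P2003513) differed by -0.14 ± 0.21 between ERD and BLD. Its mean was 1.28 ± 0.42 in ERD, 1.42 ± 0.28 in BLD and 1.28 ± 0.37 in STD.

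Dnajb1 encodes HSP40, the J-domain partner that starts the ATPase cycle of HSP70. Its log2 ratios were -0.14, 0.04, -0.43, 0.28 and 0.64 in ERD, 0.77, 0.34, 0.57, 0.11 and -0.58 in BLD, and 0.45, 0.64, 0.70, 0.79 and 0.09 in STD. ERD 5 reached the STD arrays, and STD 5 lay among the ERD arrays. The means were 0.08 ± 0.41 in ERD, 0.24 ± 0.52 in BLD and 0.53 ± 0.28 in STD. The change in ERD against STD was -0.45 ± 0.24 (SE, adjusted p = 0.396), and it was -0.59, -0.88 and -0.15 within slides 4, 5 and 7.

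Hsp90aa1 encodes the inducible form of cytosolic HSP90. Its log2 ratios were 1.53, 1.01, 0.94, 0.21 and 0.78 in ERD, 1.29, 0.87, 1.23, 0.90 and 0.97 in BLD, and 1.46, 1.30, 1.24, 1.55 and -0.19 in STD. STD 5 was by far the lowest array, and the other 4 STD arrays were at or above 1.24. The change in ERD against STD was -0.18, with a 95% interval of -0.80 to 0.44, and without STD 5 it was -0.49 (adjusted p = 0.333). With the scanner's processed signals it was 0.15.

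Neither gene of the mitochondrial pair passed the test. Hspd1, encoding HSP60, ran from -1.47 to -1.07 in ERD, from -1.37 to -0.81 in BLD and from -1.62 to -0.62 in STD. Its change was -0.06 in ERD against STD, with a 95% interval of -0.44 to 0.32, 0.18 in BLD against STD, with an interval of -0.20 to 0.56, and -0.24 in ERD against BLD. Hspe1, encoding HSP10, ran from -2.14 to -1.25 in ERD, from -2.41 to -1.34 in BLD and from -1.90 to -1.29 in STD. The Hspe1 change was -0.07 in ERD against STD, with an interval of -0.52 to 0.37, and -0.08 in BLD against STD, with an interval of -0.52 to 0.36. The groups of both genes overlapped in every comparison. The Hspe1 probes A_66_P124952 and A_55_P2089358 varied together over the 15 arrays (r = 0.913), whereas A_55_P1953063 correlated with them at -0.207 and -0.304. That probe had a mean of -0.67 ± 0.48 in ERD, -0.95 ± 0.26 in BLD and -0.94 ± 0.21 in STD, a change of 0.27 ± 0.20 (SE) in ERD against STD (adjusted p = 0.558), while A_55_P2089358 was at 0.01. A_55_P1953063 was dim, with net Cy5 from 13 to 382, and exceeded background on 14 of 15 arrays. On the later scan day's arrays, ERD 4, BLD 2, BLD 3 and BLD 4, its net Cy5 was 186, 195.5, 382 and 358. On all other arrays it was at most 136.5. Its Cy3 reference signal differed by 1.18 in BLD against STD and by -1.05 in ERD against BLD (adjusted p = 0.361 and 0.591 in limma). The part of scan day in these values was not tested.

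**Figure D3:**
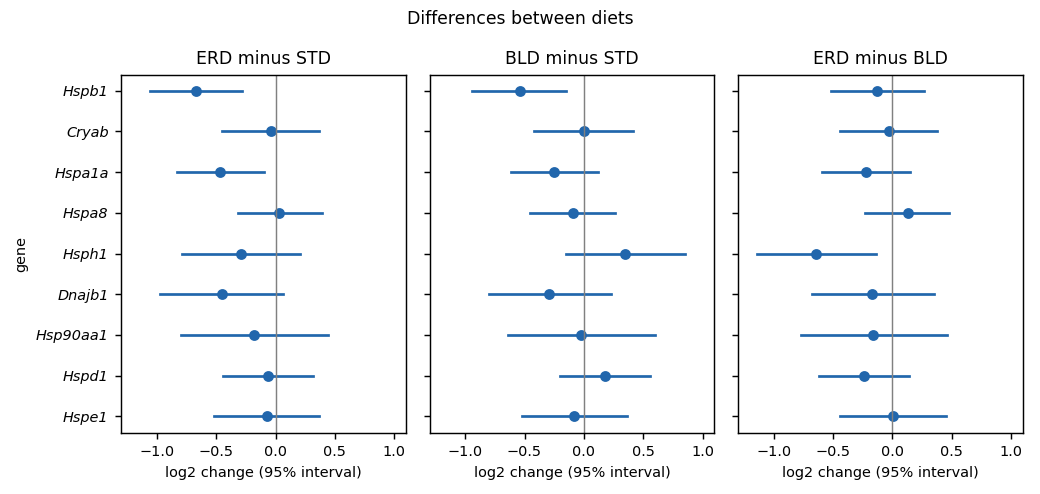
Log2 change (x axis) of each heat shock protein gene (y axis) in ERD minus STD, BLD minus STD and ERD minus BLD; points are limma estimates and lines 95% intervals, not adjusted for the number of genes. The intervals of Hspb1 and Hspa1a lie below 0 in ERD minus STD, that of Hspb1 in BLD minus STD and that of Hsph1 in ERD minus BLD, and all others cross 0.

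Variation shared between the genes was examined across arrays. With diet means removed, 36 pairs were compared over the 15 arrays, and 0 passed after adjustment. Dnajb1 and Hspe1 had r = 0.752 and rho = 0.661 (permutation p = 0.00944 and 0.0213, adjusted 0.34 and 0.767). Within the 11 arrays of the earlier scan day r was 0.759, and without BLD 5 and ERD 3 it was 0.44. Hsp90aa1 and Hsph1 had r = 0.792 and rho = 0.554 (permutation p = 0.0348 and 0.0591, adjusted 0.626 and 0.848), and r was 0.753 within the earlier scan day. Without STD 5 and ERD 4 it was 0.192, so that relation rests on those arrays. Among 13656 other named genes, Nup133, Eif2s2 and Rpa1 had the residual pattern most like the brightest Hspa8 probe (r = 0.907, 0.906 and 0.899 over the 15 arrays). Without ERD 1 and BLD 1 these were 0.835, 0.813 and 0.902. For the mean of the heat shock genes above background on all arrays the most alike were Cdv3, Pdia6 and Ldhb (0.866, 0.862 and 0.828), and without STD 5 and BLD 5 those fell to 0.629, 0.552 and 0.455. Both sets are the highest of 13656 correlations over 15 arrays, so selection alone raises these values, and they were not tested.

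The regulators and partners of these chaperones were read from lists of related genes, and 0 genes of any list were called in ERD against STD. Hsf1, the master regulator, had a mean of 0.07 ± 0.36 in ERD and -0.13 ± 0.24 in STD, a change of 0.20 (adjusted p = 0.648). Of 10 genes for HSF1 and its regulators 7 were higher in ERD, with a median change of 0.19, against 6 and 0.10 with median centring. Hdac6, the deacetylase that senses ubiquitinated protein, was at 0.40 and Hsf4 at 0.65. Of the other small heat shock proteins 6 of 7 had a higher mean, with a median of 0.18, or 5 of 7 and 0.07 with median centring. Hspb7, 1 of those 6, exceeded background on 2 of 5 ERD arrays and 0 of 5 STD arrays, and Cryaa on 2 of 5 and 1 of 5. Hspb2 had means of -0.18 ± 0.09 in ERD and -0.56 ± 0.13 in STD, a change of 0.37 with groups that did not overlap (adjusted p = 0.1), and Hspb8 was at -0.40. Such groups were found for 1 of the 7 genes, against 3.78% of all features.

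Partners of HSP70 and HSP90 had changes of both signs. Of the other HSP70 and HSP110 genes 4 of 7 were higher in ERD than in STD, with a median of 0.17, or 0.04 with processed signals and 0.05 with median centring. Hspa12a, among the 4, exceeded background on 3 of 5 ERD arrays and 1 of 5 STD arrays. From the same list, Hspa13 was at 0.23 and Hspa12b at 0.27. Of the list of HSP70 exchange factors, which also holds the ubiquitin ligase Stub1, 5 of 8 were higher, with a median of 0.18. Stub1 was at 0.47 and Bag6 at 0.37, the latter with groups that did not overlap. In the HSP40 family 9 of 15 were lower, with a median of -0.03. The endoplasmic reticulum protein Dnajb9 was at -0.68 with groups that did not overlap (adjusted p = 0.117) and Dnaja4 at -0.56 (adjusted p = 0.119). Groups without overlap were found for 1 of 15 genes of this family and 1 of 8 exchange factors, against 3.78% of all features. Of HSP90 and its co-chaperones 8 of 13 were higher, with a median of 0.10, the immunophilin Fkbp4 being at 0.35 and p23 (Ptges3) at -0.34. With median centring the HSP90 list turned to 6 of 13 higher, with a median of -0.02, and the exchange factors to 4 of 8.

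Among partners of the mitochondrial pair, 11 of 14 chaperones and proteases had a higher mean in ERD than in STD, with a median change of 0.10, but 7 of 14 did in Cy5 alone, with a median of 0.03. Grpel1, the exchange factor of mitochondrial HSP70, was at 0.29 and the disaggregase Clpb at 0.34. The groups of Grpel1 did not overlap, which held for 1 of the 14 genes and 3.78% of all features. Of the cytosolic chaperonin TRiC and prefoldin 8 of 13 were lower, with a median of -0.01, Pfdn2 being at -1.18 and Cct7 at 0.43. Immediate early genes, which share a rapid induction with the stress genes, were lower in 12 of 14, with a median of -0.41, Egr4 being at -1.03 (adjusted p = 0.109) and Egr2 at -0.49.

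**Figure D4:**
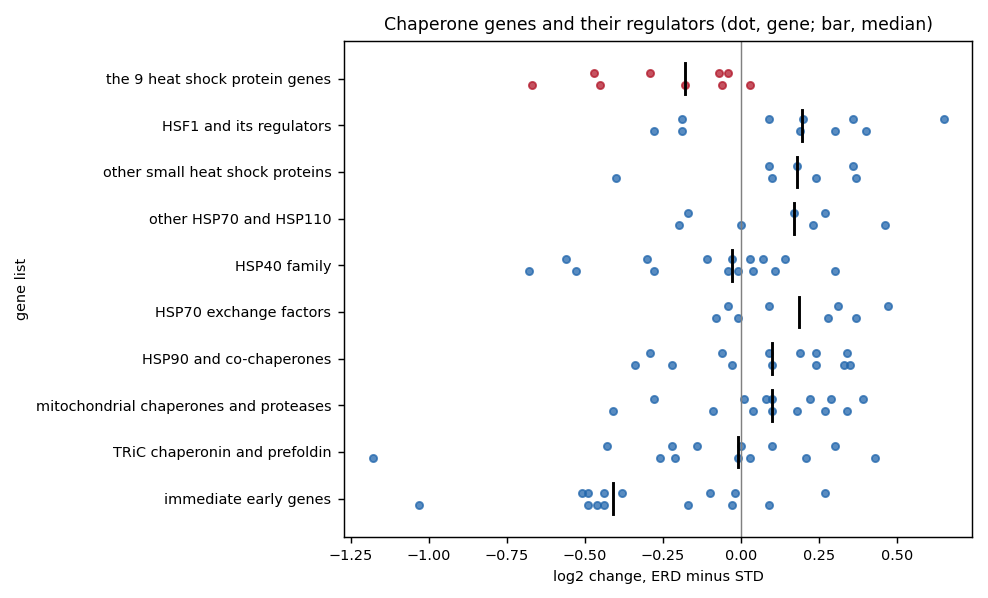
Log2 change in ERD minus STD (x axis) of the 9 heat shock protein genes (red) and of related genes (blue), by list (y axis); each dot is a gene and each black bar the list's median. The 9 genes have a median of -0.18 and the immediate early genes of -0.41, while the medians of the regulators and of the other small heat shock proteins are 0.19 and 0.18.

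No cell type marker passed the test in ERD against STD, and the part of cell types in the heat shock gene values was not tested. The mean over the oligodendrocyte list, each gene centred on its mean over all arrays, ran from -0.49 to 0.02 in ERD and from 0.06 to 0.14 in STD, without overlap, and 6 of 8 markers were lower (Mag at -0.41, Cldn11 at -0.99), though 4 of 8 were in Cy5 alone. For astrocytes it ran from -0.18 to 0.29 in ERD and from -0.08 to 0.11 in STD. Of the astrocyte markers 6 of 8 were lower, or 4 of 8 in Cy5 alone, with Gfap at 1.04 and Aldoc at -0.61. For endothelium and pericytes it ran from -0.55 to 0.16 in ERD and from -0.17 to 0.28 in STD, with 5 of 8 markers lower and Vwf at 0.61 and Pdgfrb at 0.35. Neuronal markers were lower in 6 of 8, and in 4 of 8 with processed signals (Snap25 at 1.38, Stmn2 at -0.30), microglial markers in 5 of 8 (Trem2 at 0.43, Cx3cr1 at -0.58), those of choroid plexus and ependyma in 4 of 6 (Kl at -0.52, Folr1 at 0.29) and those of blood in 2 of 4 (Hba-a1 at 0.16, Hba-a2 at 0.14). The blood list had 0 of 4 lower in Cy5 alone and 4 of 4 with median centring, and 1 of 6 choroid plexus and ependyma markers was lower in Cy5 alone. Of single markers, the ERD and STD arrays did not overlap for Snap25, Aldoc and Pdgfrb, 1 in each of their lists (all features 3.78%). The same centred mean over the 9 heat shock genes ran from -0.24 to 0.05 in ERD, from -0.17 to 0.10 in BLD and from -0.23 to 0.34 in STD, and these ranges overlapped. The number of Cy5 spots above background, a measure of array brightness, correlated with Cryab at r = 0.632 and rho = 0.325 (permutation p = 0.0461 and 0.303, adjusted 0.258 for r over 9 genes). Without ERD 1 and BLD 1 that r was 0.0955. For Hspd1 r was 0.391 and rho 0.5 (permutation p = 0.0574 and 0.0469, adjusted 0.258 for r), and without the same arrays r was 0.401.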

How the data were processed

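Hemibrain RNA of 15 mice, 5 per diet, was measured on Agilent 2-colour arrays. The deposited scanner files hold spot intensities in Cy5 and Cy3, per the file headers made with Agilent Feature Extraction 11.5.1.1, while the submitters' processing notes name 10.7. The deposited table of values holds log10 ratios of Cy5 over Cy3, equal to those in the scanner files. Total RNA was extracted with Trizol, per the labels' protocols.

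Intensities were corrected with normexp (offset 50) and loess within arrays, control spots at weight 0, in limma 3.58.1 (R 4.3.3, data.table version 1.17.8). Outlier spots (0.574%) were left out, and spots of a probe were averaged. A filter kept 26348 of 55681 probes: Cy5 well above background on 5 or more of the 15 arrays, and 8 or more values. Of the 55681, 27656 had a symbol through their RefSeq accession. The brightest probe stood for a gene, which left 22557 features. A limma model over the 15 arrays (12 residual degrees of freedom) gave the pairwise changes, 2-sided, and an F test, Benjamini-Hochberg adjusted over all features, called under 0.05. Slides and scan days were read from the files. Correlations used 100000 permutations within diets. The number of arrays limits the precision: standard errors of log2 changes had a median of 0.163, and of 0.193 for the heat shock genes. On simulated arrays of the same spread, log2 changes of 0.5 and 1 in ERD against STD were recovered in 30% and 80% of 50 genes each (22389 genes simulated). The simulated noise was independent between arrays, without slides, scan days or outlying arrays, and more genes were changed than were called in the data. The heat shock genes had a larger median standard error than all features, so these shares may be too high for them. The labels do not say how animals were housed or litters split, so p-values measure the spread between these samples.

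Named genes were all 10 members with every probe, Hsf1, the 2 genes of lowest p in ERD against STD of each related list (none passed), and the 3 genes most like Hspa8 and most like the members' mean. The members and the lists of regulators, partners and cell type markers were chosen with earlier results of these data known. Results were recomputed under 32 alternative settings. Dye was not swapped. Figures were drawn with Python 3.11.15, pandas 2.3.3 and matplotlib 3.10.9. Coordinates are given only for the RefSeq promoter windows, since the array files name an older build.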

Additional observations from a re-analysis of the deposited data

Results flagged for a closer look

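In 5 of 45 groups of 5 arrays (15 probes, 3 diets) the highest or lowest array stood far from the other 4. The limit used would mark about 1 in 20 separate groups of normally spread values. These groups share their arrays, and some probes share a gene, so the count cannot be compared with that rate. STD 5 was low for Hsp90aa1, at -0.19 with the nearest STD array at 1.24, and low for the brightest Hsph1 probe, at 0.53 with the nearest at 1.54. ERD 1 was high for the brightest Hspa8 probe, at 1.73 with the nearest ERD array at 1.11. ERD 5 was high for the second Hsph1 probe, at 2.01 with the nearest at 1.22. BLD 5 was low for the brightest Hspe1 probe, at -2.41 with the nearest BLD array at -1.64. ERD 1 was also the array least correlated with the others (median r of 0.88).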

How the results depend on the processing

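Under each of the 32 alternatives 0 of the heat shock genes fitted (9, or 8 with the filter on all 15 arrays) were called between any 2 diets, and 0 in the F test under the 31 that have one. Of single probes, the dim Hspa8 probe passed without ERD 3 (adjusted p = 0.0423 in limma). Of 861 recomputed changes, 778 had the same sign and 83 the opposite, 0 of them past the threshold, and the cause was not tested. Median centring moved the median of all features to 0.18 in BLD against STD and -0.20 in ERD against BLD. Changes of sign in ERD against STD were Hsp90aa1 at 0.15 (processed signals), Hspa8 at -0.09 (median centring), Cryab at 0.00 and Hspa8 at -0.08 (Cy5 alone), Hspa8 at -0.44 and Hspe1 at 0.07 (mean of a gene's probes), Cryab at 0.03 and Hspa8 at -0.21 (slide as a fixed block), Hspa8 at -0.09 (array weights), Cryab at 0.12, Hspa8 at -0.13 and Hspd1 at 0.01 (without the 3 least correlated arrays), and Cryab at 0.10 and Hspd1 at 0.02 (Cy5 detection as a covariate). In BLD against STD they were Hsp90aa1 at 0.11 and Hspa8 at 0.03 (processed signals), Cryab at 0.30, Dnajb1 at 0.02, Hsp90aa1 at 0.27, Hspa1a at 0.03, Hspa8 at 0.23 and Hspe1 at 0.20 (median centring), Hsp90aa1 at 0.02 (Cy5 alone), Hspe1 at 0.01 (mean of probes), Cryab at 0.03, Hspa1a at 0.21 and Hspd1 at -0.18 (slide as a fixed block), Cryab at 0.01 (slide as a random block), Hsp90aa1 at 0.23 (scan day as a block), Cryab at 0.04 (without the 3 arrays), Hsp90aa1 at 0.01 (covariate), and Hsp90aa1 at 0.05 and Hspd1 at -0.02 (earlier scan day alone). In ERD against BLD they were Hsp90aa1 at 0.04 and Hspe1 at -0.03 (processed signals), Cryab at 0.00 (offset of 1), Hspa8 at -0.32 and Hspe1 at -0.36 (median centring), Cryab at 0.06, Hspa8 at -0.03 and Hspe1 at -0.02 (Cy5 alone), Hspa8 at -0.39 (mean of probes), Cryab at 0.00, Dnajb1 at 0.02 and Hspb1 at 0.08 (slide), Cryab at 0.08 (scan day), Cryab at 0.08, Hspa1a at 0.01, Hspa8 at -0.02 and Hspe1 at -0.01 (without the 3 arrays), Cryab at 0.17 (covariate), and Cryab at 0.11 and Hspb1 at 0.03 (earlier scan day).

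With 1 array left out at a time, the changes in ERD against STD ran from -0.16 to 0.13 for Cryab, -0.11 to 0.11 for Hspa8, -0.16 to 0.09 for Hspd1 and -0.18 to 0.04 for Hspe1. In BLD against STD they ran from -0.10 to 0.09 for Cryab, -0.34 to 0.10 for Hsp90aa1, -0.18 to 0.00 for Hspa8 and -0.16 to 0.11 for Hspe1. In ERD against BLD they ran from -0.15 to 0.13 for Cryab, -0.31 to 0.02 for Hsp90aa1, -0.02 to 0.20 for Hspa8 and -0.18 to 0.13 for Hspe1.

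The number of features called, 49 in ERD against STD, was 0 with median centring, without the 3 least correlated arrays and in the earlier scan day alone, 32 above background on all 15 arrays, 1 with slide as a fixed and 101 as a random block, 11 with scan day as a block, 123 with array weights, 22 with only the 2 diets, 92 with the covariate, and 5 to 170 with 1 array left out (170 without ERD 3, 5 without ERD 4). In BLD against STD (2 called) it was 1 with processed signals, the offset of 1, median centring, scan day as a block, only the 2 diets and the earlier scan day, 5 with either other filter, 0 and 7 with slide as a fixed and random block, 23 with array weights, 9 with an intensity trend, and 1 to 10 with 1 array left out. In ERD against BLD (0 called) it was 1 with slide as a fixed block, only the 2 diets and the earlier scan day, and 0 to 1 with 1 array left out. The F test (11 called) gave 1 with processed signals, the offset of 1, median centring, slide as a fixed block, without the 3 arrays and in the earlier scan day, 20 in Cy5 alone, 63 with slide as a random block, 3 with scan day, 92 with array weights, 25 with the trend, 45 with the covariate, and 1 to 24 with 1 array left out. The covariate and the earlier scan day were chosen after seeing the data. No paired analysis was possible because the labels give the arrays no replicate numbers that pair the diets. Arrays sharing a slide were compared through the slide block. The dim Hspa1a probe has no value under the filter on all 15 arrays.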
